A study of Mus musculus with 12 samples.

Results

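The interferon-inducible GTPases described here are 10 mouse genes of 33531 gene symbols in the series, taken by symbol: Gbp2, Gbp3, Gbp5, Gbp7, Gbp9, Irgm1, Irgm2, Igtp, Tgtp2 and Iigp1. All 10 had a row in each of the 12 libraries, and 7 of them had a mean of at least 1 RPKM (reads scaled by gene length and by library depth). The libraries held RNA of CMM-tetON-shStat3 cells, a mouse acute myeloid leukaemia with the inv(16) fusion that carries a doxycycline-inducible hairpin against Stat3 and the markers GFP and mCherry. Cells were engrafted through a vein into NSG mice, an immunodeficient host without mature T, B and NK cells, and dosing started once about 1% of blood cells were leukaemic. The 4 groups, with 3 libraries each, received PBS, CpG1668 (an oligonucleotide that activates the DNA sensor TLR9), doxycycline (Dox) or both agents (CpG1668+Dox). All 4 groups, the PBS group included, carried the hairpin construct, and no group received Dox without it, so what Dox does alone and what the hairpin does cannot be told apart. The labels give 6 daily treatments in one place and 3 treatments on alternate days in another. Spleens were taken 1 day after the last treatment and cells positive for both markers were sorted. Whether replicate libraries stem from different mice is not in the labels, and p-values here measure only the spread between libraries, which may be technical.

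Interferon-inducible GTPases are part of the defence of a cell against microbes that live inside it. Guanylate-binding proteins (the Gbp genes) are relatives of dynamin that assemble on vacuoles and on bacterial surfaces and promote inflammasome signalling. Immunity-related GTPases form a second family. Its regulators Irgm1, Irgm2 and Igtp sit on membranes of the host cell and hold the effectors in an inactive state. The effectors, which include Tgtp2 and Iigp1, load onto the vacuoles of parasites and bacteria. Both families are classical targets of interferon-gamma, which acts on GAS elements and through IRF1, while type I interferon acts on ISRE elements.

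The estimated depth was 30350000 to 34880000 reads per library. Stat3, the target of the hairpin, was at 16.8 to 17.9 RPKM in PBS and 17.6 to 18.5 in CpG1668. It was at 18.8 to 19.1 in the libraries labelled Dox and 19.0 to 19.7 in those labelled CpG1668+Dox. It was called higher, not lower, in both (0.13, limma adjusted p = 0.044 and 0.16, adjusted p = 0.0068 against PBS), and every comparison below is between libraries as labelled. Each library correlated best with one of its own group, except Dox 1, whose closest was CpG1668 3. Among markers of other cells, 10 T and NK cell genes summed to 11.9 to 23.5 RPKM and 10 endothelial and stromal genes to 1.88 to 3.51. The sum of 10 dendritic cell genes was 29.2 to 36.9, and each of these lists had 1 gene at a mean of at least 1. Nkg7 (mean 15.4 RPKM) made up most of the T and NK sum and Bst2 (31.3) most of the dendritic sum. Bst2 also stands in the list of type I interferon targets used below, so these sums are weak measures of those cells. For 10 B and plasma cell genes the sum was 7.31 to 15.3, with 2 at a mean of at least 1. For 12 splenic macrophage genes it was 18.5 to 52.8, with 9 at that mean. Adgre1 of the macrophage list and Ighm of the B cell list were called higher in each treated group against PBS. Their PBS means were 0.802 and 0.461 RPKM, so both reached a mean of 1 through the treated groups. Genes kept for that reason are likely to differ, and these calls are to be read with that. In cells labelled AML, 10 erythroid markers summed to 2070 to 13400 RPKM.

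Of the Gbp genes, Gbp5 (chromosome 3, 142493978 to 142522344), Gbp7 (142530342 to 142550149), Gbp3 (142560026 to 142573209) and Gbp2 (142620602 to 142638008) lie in 1 cluster on the plus strand. Gbp9 is on chromosome 5 (105077630 to 105139539, minus strand), inside a locus where its annotation overlaps Gbp4 and Gbp8. Irgm1 (48861968 to 48871683, minus strand) and Tgtp2 (49057194 to 49064206, minus strand) are on chromosome 11. Farther along that chromosome Igtp (58199556 to 58207591, plus strand) lies within the annotated span of Irgm2 (58199618 to 58222782, plus strand), save for its first bases. Positions are those of GENCODE M21 on GRCm38, the assembly also called mm10. How far sequence alone can assign a read differs between these genes. Of the 50-base words in Tgtp2 transcripts, 85.8% also occur in Tgtp1, so values of Tgtp2 are uncertain as to which of these near-copies they come from. The share with any other gene was 11.8% for Igtp (all with Irgm2), 12.7% for Gbp7, 8.05% for Gbp9 and 7.83% for Irgm2, and 3.75% or less for Gbp2, Gbp3, Gbp5, Irgm1 and Iigp1.

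Promoter windows of members called higher (Gbp2, Gbp3 and Gbp5) and lower (Irgm2 and Igtp) both held an ISRE core match. A GAS match stood in those of Gbp5, Irgm2 and Igtp and not of Gbp2 and Gbp3, and no window was used for Gbp9. The windows span 250 bases before to 50 bases after a transcript start, are taken from RefSeq on GRCm38.p6 and were found for 8 of the 10 genes. Capitals mark matches to the GAS pattern TTCNNNGAA or to an ISRE core, written here as 2 copies of GAAA with any 2 bases between them, both searched on both strands. Gbp2 and Gbp3 are shown because they were called higher, Irgm2 and Igtp because they were called lower, and Gbp7 because it was not called in any comparison. They read 5′ to 3′ on the strand of the gene, from chr3:142620413-142620712 (Gbp2, plus), chr3:142559794-142560093 (Gbp3, plus, the upstream of 2 windows), chr3:142530086-142530385 (Gbp7, plus), chr11:58214727-58215026 (Irgm2, plus) and chr11:58199306-58199605 (Igtp, plus).
Gbp2: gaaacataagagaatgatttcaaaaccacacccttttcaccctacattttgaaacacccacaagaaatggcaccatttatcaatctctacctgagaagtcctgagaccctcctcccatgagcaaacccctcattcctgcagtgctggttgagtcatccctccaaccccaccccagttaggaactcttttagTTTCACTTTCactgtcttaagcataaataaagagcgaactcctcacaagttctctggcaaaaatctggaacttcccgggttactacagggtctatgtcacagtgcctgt
Gbp3: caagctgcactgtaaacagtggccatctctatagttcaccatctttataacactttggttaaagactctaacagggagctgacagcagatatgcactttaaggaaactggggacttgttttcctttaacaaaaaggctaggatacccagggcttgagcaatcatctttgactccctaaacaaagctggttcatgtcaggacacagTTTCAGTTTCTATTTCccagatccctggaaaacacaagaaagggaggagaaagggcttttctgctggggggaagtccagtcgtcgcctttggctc
Gbp7: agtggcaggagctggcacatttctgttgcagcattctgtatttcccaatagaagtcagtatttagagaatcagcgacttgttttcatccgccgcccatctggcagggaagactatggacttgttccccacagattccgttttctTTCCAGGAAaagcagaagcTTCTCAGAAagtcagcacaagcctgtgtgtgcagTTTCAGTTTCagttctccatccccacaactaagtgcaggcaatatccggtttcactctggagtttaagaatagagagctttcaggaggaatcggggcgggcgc
Irgm2: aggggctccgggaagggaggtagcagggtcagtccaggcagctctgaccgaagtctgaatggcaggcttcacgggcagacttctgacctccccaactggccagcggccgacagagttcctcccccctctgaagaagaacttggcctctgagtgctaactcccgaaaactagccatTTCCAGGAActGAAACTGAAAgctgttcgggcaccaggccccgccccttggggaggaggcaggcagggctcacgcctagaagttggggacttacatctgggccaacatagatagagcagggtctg
Igtp: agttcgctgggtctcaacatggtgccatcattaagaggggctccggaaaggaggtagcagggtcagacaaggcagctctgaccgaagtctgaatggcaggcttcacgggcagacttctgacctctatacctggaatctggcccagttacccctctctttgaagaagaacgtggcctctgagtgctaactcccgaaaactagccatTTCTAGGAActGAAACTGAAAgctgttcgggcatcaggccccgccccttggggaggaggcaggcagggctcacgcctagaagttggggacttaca

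All 8 genes with a window had an ISRE core match in at least 1 window, against 3.44% of 32851 promoter windows of the same length. Members are counted by gene, taking both windows of Gbp3 together, and the background by window. A GAS match was found for 5 of the 8 genes (Gbp5, Gbp7, Irgm2, Igtp and Tgtp2), against 8.3% of windows, and the same 5 had both motifs, against 0.454%. In Irgm2, Igtp and Tgtp2 the arrangement was alike, with a GAS match followed after 2 bases by an ISRE core match. The Irgm2 match TTCCAGGAA spans bases -75 to -67 from the start and the Igtp match TTCTAGGAA bases -45 to -37, counting the base before the start as -1. Over 265 aligned bases the Irgm2 and Igtp windows were identical at 244 (92.1%). The matches in Gbp3 were a pair of overlapping ISRE cores, as in Irgm1, and the window of Gbp2 held 1. The second annotated window of Gbp3 held none. A match describes letters in a window and is not a measurement of binding.

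**Figure D1:**
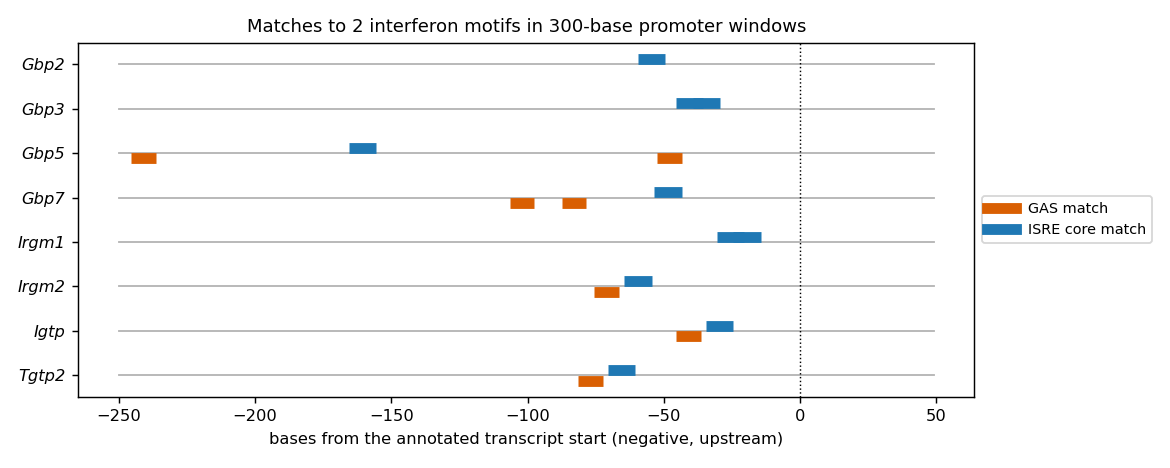
Matches to the GAS pattern and the ISRE core in the promoter windows of 8 genes, drawn by distance in bases from the annotated transcript start (x axis, dotted line at the start) with 1 row a gene. A reader should see an ISRE core match in every row and a GAS match just upstream of it in Irgm2, Igtp and Tgtp2.

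The CpG1668+Dox libraries had more transcript of some guanylate-binding protein genes and less of the regulators Irgm2 and Igtp than the PBS libraries. In Dox against PBS no guanylate-binding gene was called, and in CpG1668 against PBS only Gbp3 was called among them. Igtp was not called in CpG1668 against PBS. The most abundant guanylate-binding gene, Gbp7, stayed within 10.1 to 11.8 RPKM in all groups. In PBS the most abundant members were Igtp (mean 18.8 RPKM), Gbp7 (11), Tgtp2 (8.52), Irgm2 (7.17) and Irgm1 (4.94). Gbp2 (1.11) and Gbp3 (0.593) were low, Gbp5 (0.155) and Gbp9 (0.0807) lower, and Iigp1 (0.00529) close to absent. Members were tested with limma on log2(RPKM + 1) together with all 12167 genes of mean RPKM of at least 1, and a gene was called at a Benjamini-Hochberg adjusted p under 0.05. The pseudocount of 1 understates the change of low genes, so ratios of group means are given too.

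**Figure D2:**
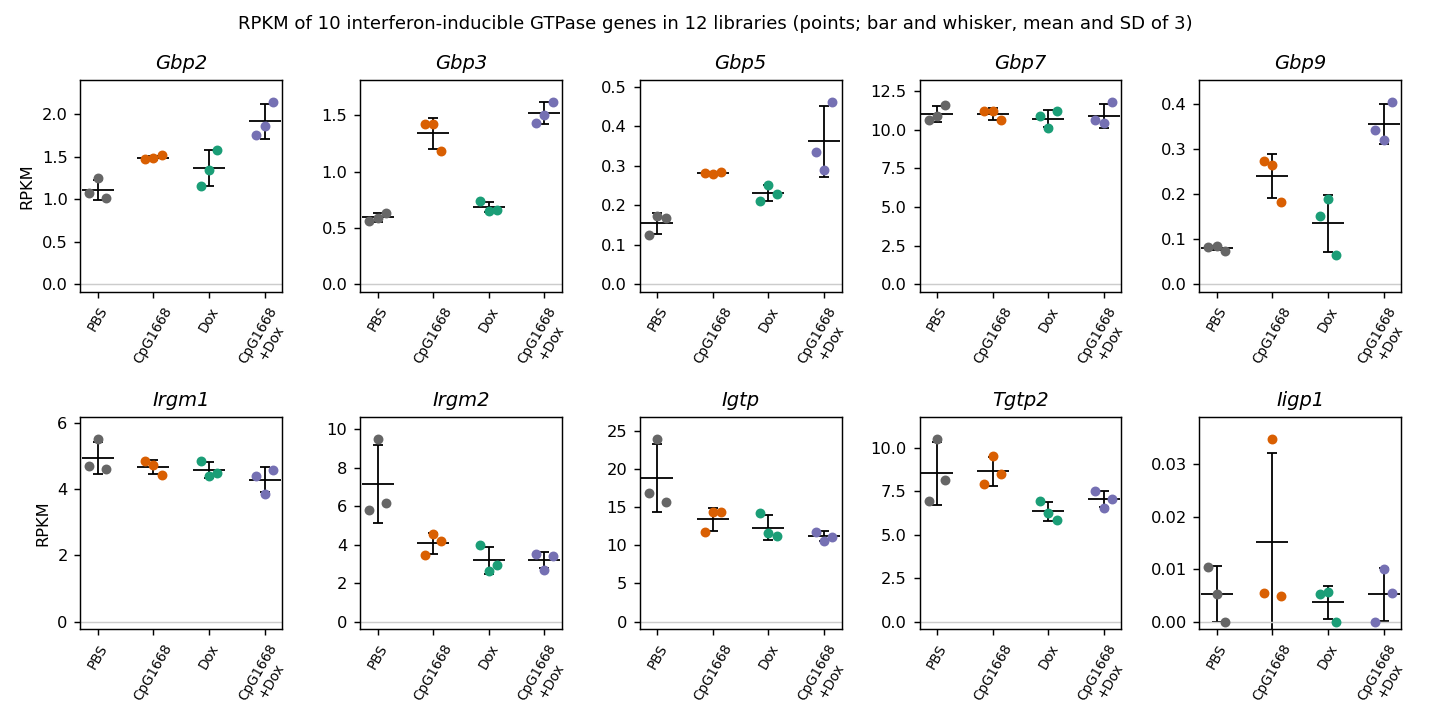
RPKM (y axis, linear and separate for each gene) of the 10 GTPase genes in the 4 groups (x axis). Points are libraries and the bar and whiskers give the mean and SD of 3. Gbp3 separates the libraries given CpG1668 (1.18 to 1.62) from the others (0.559 to 0.735), Gbp7 is level, and Igtp and Irgm2 are highest in PBS.

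Gbp3 separated the libraries by CpG1668. It was at 0.559, 0.589 and 0.63 RPKM in the PBS libraries and at 0.735, 0.652 and 0.663 in those labelled Dox. It was at 1.42, 1.42 and 1.18 in CpG1668 and at 1.43, 1.5 and 1.62 in CpG1668+Dox. Every library given CpG1668 was above every library not given it. Gbp3 was 2.26-fold higher in CpG1668 than in PBS as a ratio of means (log2 change 0.55 ± 0.065 SE, limma adjusted p = 0.00053). In CpG1668+Dox it was 2.56-fold the PBS mean (0.66 ± 0.065, adjusted p = 3.7e-05), 2.22-fold the Dox mean (0.58, adjusted p = 0.00054) and 1.13-fold the CpG1668 mean, the last not called (0.11, adjusted p = 0.5). CpG1668 alone exceeded Dox alone 1.96-fold (0.48, adjusted p = 0.0074). Dox against PBS was not called, at 0.08 (95% interval -0.06 to 0.22, adjusted p = 0.55), although the 3 Dox libraries were all above the 3 PBS libraries. With quantile normalization that change had the other sign and was not called either (-0.2, limma adjusted p = 0.1). The mean of Gbp3 over the 12 libraries was 1.03 RPKM, just above the minimum, and only the groups given CpG1668 had means over it. A gene kept for that reason is likely to differ, and its calls are to be read with that.

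Gbp2 rose over PBS where both agents were given. Gbp2 is one of the guanylate-binding proteins that gather on the vacuoles of bacteria. Its values were 1.07, 1.25 and 1.02 RPKM in PBS, 1.16, 1.35 and 1.58 in Dox, 1.47, 1.49 and 1.52 in CpG1668, and 1.76, 1.86 and 2.15 in CpG1668+Dox. The CpG1668+Dox libraries lay above all 9 others, and CpG1668 and Dox overlapped. The log2 change of CpG1668+Dox against PBS was 0.47 ± 0.077 (adjusted p = 0.0017), a ratio of means of 1.73. Against Dox the change was 0.31 (adjusted p = 0.057) and against CpG1668 it was 0.23 (adjusted p = 0.16), neither called. CpG1668 against PBS (0.24, adjusted p = 0.098) and Dox against PBS (0.16, adjusted p = 0.27) were not called either.

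Gbp5 and Gbp9 were under the minimum and were tested in the fit with no filter on low values. Gbp5, a promoter of inflammasome assembly, was at 0.124, 0.174 and 0.167 RPKM in PBS, 0.212, 0.252 and 0.229 in Dox, 0.281, 0.279 and 0.284 in CpG1668, and 0.335, 0.289 and 0.462 in CpG1668+Dox. No neighbouring groups in that order overlapped. These values amount to an estimated 26.9 to 94.5 reads per library. Gbp5 was called higher in CpG1668+Dox than in PBS (log2 change 0.24, ratio of means 2.34, limma adjusted p = 0.008) and in none of the other 5 pairs. Gbp9 was at 0.0828, 0.0844 and 0.0748 in PBS, 0.151, 0.189 and 0.0652 in Dox, 0.273, 0.264 and 0.183 in CpG1668, and 0.342, 0.319 and 0.405 in CpG1668+Dox, from an estimated 10.6 to 64.5 reads. Its CpG1668+Dox libraries lay above all others, and Dox spanned the PBS range and part of the CpG1668 range. Gbp9 had a CpG1668+Dox mean 4.4-fold that of PBS (0.33, adjusted p = 0.0018) and 2.63-fold that of Dox (0.26, adjusted p = 0.019). For CpG1668 against PBS the ratio was 2.97, not called (0.20, adjusted p = 0.061). Of all 33531 genes in that fit, 5.54% were called higher in CpG1668+Dox against PBS, 1.71% in CpG1668+Dox against Dox, 1.25% in CpG1668 against PBS, 0.856% in CpG1668+Dox against CpG1668 0.0775% in CpG1668 against Dox and 0.79% in Dox against PBS.

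Gbp7 gave no call in the 6 pairs of groups. Gbp7 is the guanylate-binding protein linked to delivery of NADPH oxidase subunits to vacuoles. It was at 10.6, 10.9 and 11.6 RPKM in PBS, 11.2, 11.2 and 10.6 in CpG1668, 10.9, 10.1 and 11.2 in Dox, and 10.6, 10.4 and 11.8 in CpG1668+Dox. All 4 groups overlapped. The 95% intervals of the log2 changes against PBS were -0.12 to 0.12 for CpG1668, -0.15 to 0.08 for Dox and -0.13 to 0.11 for CpG1668+Dox. Its neighbour on the chromosome, Gbp3, was called in 4 of the 6 pairs.

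Irgm2 fell in each treated group relative to PBS. Irgm2 is one of the regulators that keep effector GTPases off host membranes. It was at 5.82, 9.5 and 6.19 RPKM in PBS, 3.48, 4.55 and 4.18 in CpG1668, 3.98, 2.63 and 2.95 in Dox, and 3.5, 2.71 and 3.41 in CpG1668+Dox. All PBS libraries were above all treated libraries, and the 3 treated groups overlapped each other. The log2 change against PBS was -0.67 ± 0.164 in CpG1668 (adjusted p = 0.037), -0.95 ± 0.164 in Dox (adjusted p = 0.007) and -0.94 ± 0.164 in CpG1668+Dox (adjusted p = 0.0026), with ratios of means of 0.567, 0.445 and 0.447. The CpG1668 call was lost with a replicate block (adjusted p = 0.075), with no filter (0.11) and without PBS 2 (-0.47, adjusted p = 0.11), the library with the highest value. It was also lost on leaving out PBS 3, CpG1668 1, CpG1668 2, CpG1668 3, CpG1668+Dox 1 or Dox 3. Between treated groups nothing was called, and CpG1668+Dox against Dox had an interval of -0.35 to 0.37.

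Igtp, also called Irgm3, was called lower in both groups given Dox. It was at 16.8, 23.9 and 15.6 RPKM in PBS, 11.7, 14.4 and 14.3 in CpG1668, 14.2, 11.6 and 11.2 in Dox, and 11.8, 10.6 and 11.1 in CpG1668+Dox. The PBS libraries were again above all 9 treated libraries, and PBS 2 was the highest. Igtp fell by 0.55 on the log2 scale in Dox (ratio of means 0.656, adjusted p = 0.041) and by 0.68 in CpG1668+Dox (ratio 0.596, adjusted p = 0.007). The CpG1668 change of -0.44 was not called (ratio 0.715, adjusted p = 0.098). The Dox call was lost with a replicate block (adjusted p = 0.066), with no filter (0.14) and without PBS 2 (-0.38, adjusted p = 0.095). It was also lost without PBS 1, CpG1668 2, CpG1668 3, Dox 2, Dox 3 or any 1 of the CpG1668+Dox libraries.

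Irgm1, the regulator whose loss in mice is known to impair resistance and haematopoiesis, gave no call. It was at 4.7, 5.51 and 4.62 RPKM in PBS, 4.84, 4.72 and 4.43 in CpG1668, 4.85, 4.38 and 4.48 in Dox, and 4.4, 3.86 and 4.59 in CpG1668+Dox. The CpG1668+Dox libraries lay just below the PBS libraries (log2 change -0.17, 95% interval -0.32 to -0.02, adjusted p = 0.12), and the other pairs overlapped. With quantile normalization that comparison was called (-0.21, adjusted p = 0.045).

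Of the effectors, Tgtp2 was well expressed and gave no call, and Iigp1 was near the limit of detection. Tgtp2 was at 6.94, 10.5 and 8.14 RPKM in PBS, 7.9, 9.52 and 8.51 in CpG1668, 6.95, 6.22 and 5.86 in Dox, and 7.51, 6.56 and 7.08 in CpG1668+Dox. The CpG1668 libraries lay above the Dox libraries (log2 difference 0.39, adjusted p = 0.12) and above the CpG1668+Dox libraries (CpG1668+Dox against CpG1668 -0.26, adjusted p = 0.31), and PBS overlapped all groups. Its near-copy Tgtp1 was listed at 0.00204 to 0.481 RPKM. Iigp1 was at 0 to 0.0105 RPKM in 11 libraries and at 0.0348 in CpG1668 2, which amounts to an estimated 0 to 6.97 reads per library, so no difference was detectable at this depth. For Iigp1, 3 reads would give 0.0148 to 0.017 RPKM.

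In counts, 2 of the 7 tested members were called in CpG1668 against PBS (Gbp3 higher, Irgm2 lower), where 5.88% of all genes tested were called, 3.06% higher and 2.83% lower. In Dox against PBS 2 were called, both lower (Irgm2 and Igtp), against 5.98% of all genes, 3.95% higher and 2.04% lower. In CpG1668+Dox against PBS 4 were called, 2 higher (Gbp3 and Gbp2) and 2 lower (Irgm2 and Igtp), against 15.5%, 9.13% higher and 6.4% lower. CpG1668+Dox against Dox and CpG1668 against Dox each had 1 call, Gbp3 higher. In the first 3.48% of all genes were called, 2.81% higher and 0.666% lower, and in the second 1.56%, 0.353% higher and 1.21% lower. CpG1668+Dox against CpG1668 had 0 calls by limma, with 2 members (Gbp2 and Tgtp2) at an unadjusted p under 0.05, where 15.4% of all genes were. Of all genes 3.26% were called, 3.07% higher and 0.197% lower. The interaction, which asks whether the effect of one agent differs in the presence of the other, had 0 member calls by limma, 1 member (Irgm2, 0.68, adjusted p = 0.61) at an unadjusted p under 0.05 where 6.67% of all genes were, and a background of 0% called. Against PBS, the 7 members had a median log2 change of 0 with CpG1668 (all genes tested -0.01), -0.09 with Dox (all genes 0.01) and -0.17 with both (all genes 0). These comparisons against PBS share the PBS libraries. Groups did not overlap for 4, 3 and 5 of the 7 members in CpG1668, Dox and CpG1668+Dox against PBS, beside 25.6%, 25% and 35.3% of all genes tested. They did not overlap for 3 members in CpG1668+Dox against CpG1668 (20.4% of all genes), 2 in CpG1668+Dox against Dox (19.1%) and 2 in CpG1668 against Dox (19.5%).

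**Figure D3:**
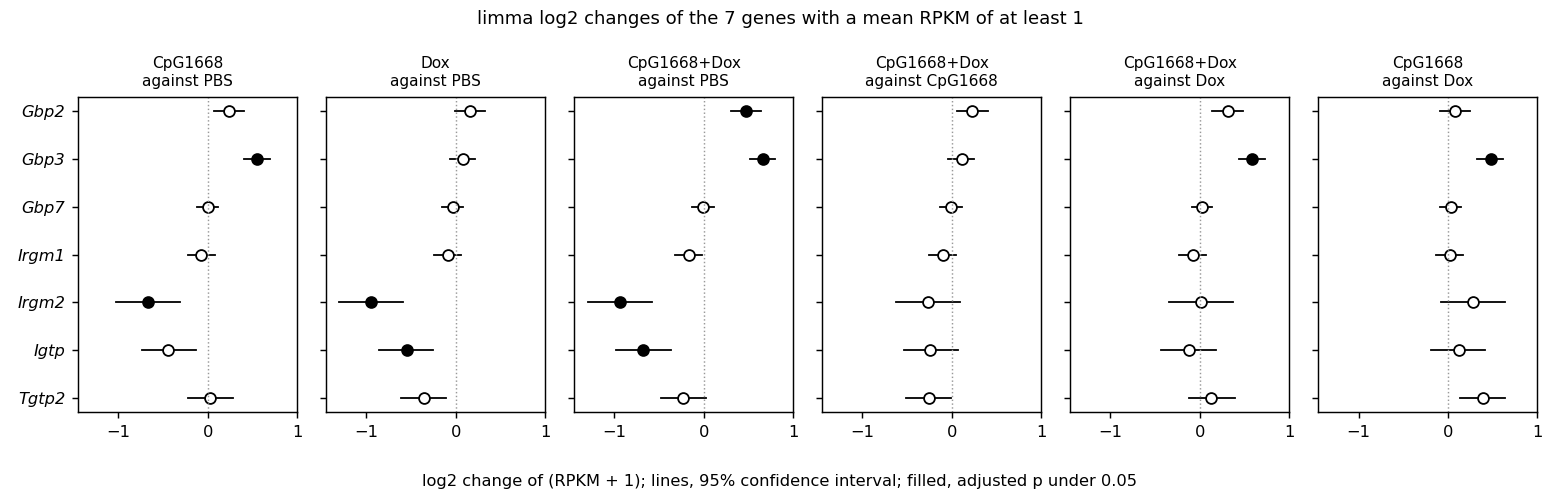
Log2 changes of RPKM + 1 (x axis) from limma for the 7 tested genes (y axis) in the 6 pairs of groups (panels), with 95% confidence intervals as lines and filled points for an adjusted p under 0.05. Gbp3 is filled in 4 panels, Irgm2 in the 3 against PBS, Igtp in 2 of these and Gbp2 in 1, while Gbp7, Irgm1 and Tgtp2 are open throughout.

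Across the 12 libraries, which share treatments and so are not independent points, the members fell into 2 blocks. Pearson r of log2(RPKM + 1) was 0.809 to 0.926 among Gbp2, Gbp3, Gbp5 and Gbp9. Among Irgm1, Irgm2, Igtp and Tgtp2 it was 0.629 to 0.965, and the highest, 0.965 between Irgm2 and Igtp, joins genes with shared sequence and overlapping annotation. PBS 2 was the highest of the 12 libraries for each of Irgm1, Irgm2, Igtp and Tgtp2. How far their r values rest on that library was not tested. With the 4 Gbp genes r was -0.655 to -0.556 for Igtp, -0.603 to -0.464 for Irgm2, -0.479 to -0.363 for Irgm1 and -0.221 to 0.0939 for Tgtp2. Gbp7 stood apart from both, with r of 0.022 to 0.338. These values describe 12 libraries and carry no test.

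**Figure D4:**
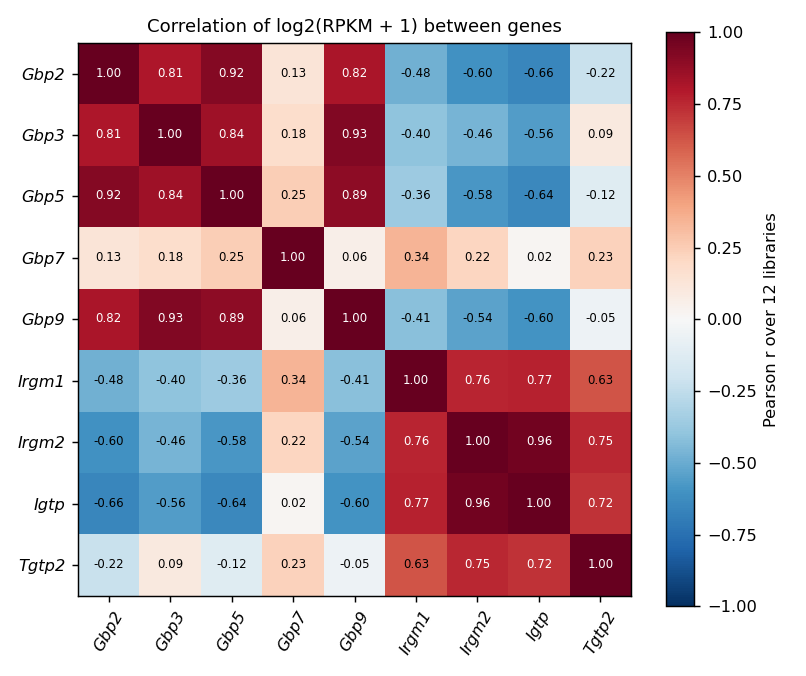
Pearson r of log2(RPKM + 1) over 12 libraries for each pair of 9 genes (rows and columns, colour from -1 to 1, Iigp1 left out for its few reads). A reader should see a positive block of Gbp2, Gbp3, Gbp5 and Gbp9, a positive block of Irgm1, Irgm2, Igtp and Tgtp2, and Gbp7 outside both.

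The genes closest to the mean standardized pattern of the 7 tested members over the 12 libraries were Mettl7a1 (Pearson r 0.916), Resf1 (0.852), Rsu1 (0.845), Trafd1 (0.839) and Mpp1 (0.825). Since members moved both ways, the closest genes of single members were also listed, a choice made after the values were seen. They were Epb42 (0.986), Xpo7 (0.985) and Ranbp10 (0.984) for Irgm2, and the closest gene to Igtp was Cln8 (0.985). For Gbp3 they were BC035044 (0.961), Il6st (0.959) and Il10ra (0.958), and for Gbp2 Eif4e3 (0.979), Csf2ra (0.971) and Siglece (0.971).

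Erythroid markers were highest in PBS, as Irgm2 and Igtp were, and monocyte markers were lowest in PBS, as Gbp2 and Gbp3 were. The summed RPKM of 10 erythroid markers, all with a mean of at least 1 and none at 0 throughout, was 9890 to 13400 in PBS, 3970 to 6870 in CpG1668, 2070 to 5020 in Dox and 2120 to 3950 in CpG1668+Dox, and PBS 2 was the highest. The 3 globin genes made up 74.4% to 93.8% of that sum. The other 7 summed to 708 to 826 in PBS, 522 to 574 in CpG1668, 531 to 657 in Dox and 478 to 502 in CpG1668+Dox, a split made after the values were seen. Of the 10, 4 were called lower with CpG1668, 6 with Dox and 9 with both against PBS, beside 2.83%, 2.04% and 6.4% of all genes tested. Klf1, an erythroid transcription factor, was not called in any of these comparisons (means 49, 47.9, 53.3 and 47.4 RPKM in PBS, CpG1668, Dox and CpG1668+Dox). The globin sum was below that of PBS in every treated group. Tgtp2 had a mean of 8.52 RPKM in PBS and 8.64 with CpG1668 alone. Its mean was 6.34 where Dox alone was given and 7.05 with both agents, neither called against PBS. In bulk RNA fewer cells of a type and less RNA per cell cannot be told apart, and the part of the erythroid genes in the lower Irgm2 and Igtp was not tested.

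The summed RPKM of 12 monocyte markers, 10 with a mean of at least 1 and none at 0 throughout, was 24.0 to 42.4 in PBS, 102 to 172 in Dox, 133 to 157 in CpG1668 and 292 to 428 in CpG1668+Dox. Lyz2, which neutrophils also express, made up 64.5% to 84.3% of it. Without Lyz2, a choice made after the values were seen, the sum was 8.52 to 12 in PBS, 23.7 to 28.8 in Dox, 39.5 to 42.7 in CpG1668 and 64.9 to 80 in CpG1668+Dox, with no overlap between groups. The group means of Gbp2 and Gbp3 had that order too. In CpG1668 against Dox, where Gbp3 was called higher, 5 of 10 tested monocyte markers were called higher (F13a1, Fcgr1, Klf4, Ms4a6c and Fcgr4) and 0 lower. Of all genes tested, 0.353% were called higher there and 1.21% lower. F13a1, Fcgr1 and Klf4 had PBS means of 0.54, 0.271 and 0.393 RPKM, under the minimum, and Fcgr1 had a Dox mean of 0.891. The caution given for Gbp3 holds for their calls. Fcgr1 was also among the 5 genes closest to Gbp3 over the 12 libraries (r 0.951). The sum of 15 late neutrophil genes was 109 to 221 in PBS, 652 to 850 in CpG1668, 586 to 2320 in Dox and 1740 to 4570 in CpG1668+Dox. The part of monocyte and neutrophil genes in the Gbp changes was not tested.

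**Figure D5:**
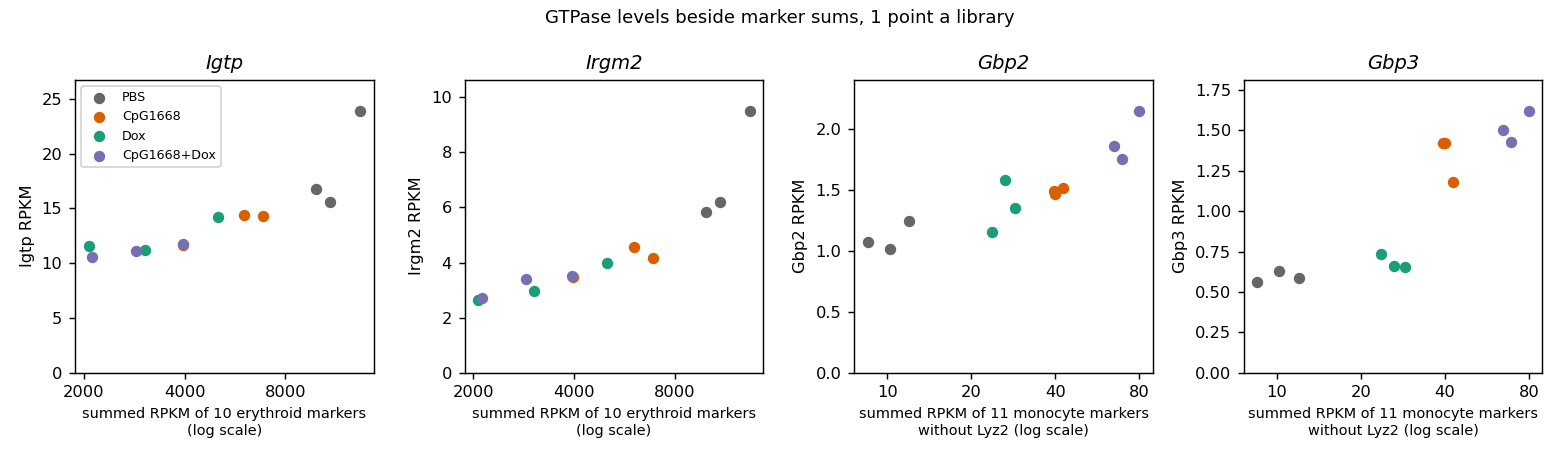
RPKM of Igtp and Irgm2 (y axis) against the summed RPKM of 10 erythroid markers, and of Gbp2 and Gbp3 against that of 11 monocyte markers without Lyz2 (x axes, log scale), with 1 point a library coloured by group. PBS points are highest for Igtp and Irgm2, at erythroid sums of 9890 to 13400, and the 3 Dox points of Gbp3 (0.652 to 0.735) lie at monocyte sums of 23.7 to 28.8, between those of PBS and CpG1668.

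Upstream of these genes, calls fell on both chains of the interferon-gamma receptor and on several IRF factors. Ifngr1, the ligand-binding chain of the interferon-gamma receptor, was at 1.67, 2.3 and 1.98 RPKM in PBS, 6.59, 6.0 and 5.85 in CpG1668, 5.2, 5.67 and 5.01 in Dox, and 13.3, 10.2 and 13.9 in CpG1668+Dox. It rose against PBS by 1.27 in CpG1668 (adjusted p = 5.8e-05), by 1.08 in Dox (adjusted p = 0.00063) and by 2.17 where both were given (adjusted p = 3.7e-07). Ifngr2, the signalling chain, rose in CpG1668+Dox (0.36, adjusted p = 0.00084) and was not called in CpG1668 or Dox. Irf1 rose in CpG1668+Dox (0.51, adjusted p = 0.0055), from 2.57 to 2.91 RPKM in PBS to 4.25 to 4.44. Irf8 rose in all 3 treated groups (0.93, 0.66 and 1.49, adjusted p = 0.00022, 0.0032 and 1.5e-06 for CpG1668, Dox and CpG1668+Dox). Its PBS mean was 0.376 RPKM, so it passed the minimum through the treated groups, and the caution given for Gbp3 holds for its calls. Socs1, an inhibitor of the receptor kinases, was not called (CpG1668 against PBS 0.42, adjusted p = 0.11). Of 17 tested genes of interferon sensing and control, 3, 2 and 7 were called higher and 0 lower for CpG1668, Dox and the 2 agents together against PBS. Irf8 was among those called higher in each. Of all genes tested, 3.06%, 3.95% and 9.13% were called higher in these comparisons and 2.83%, 2.04% and 6.4% lower. The same shares are the background for the tested genes of the lists below. Ifng itself was listed at 0 in 11 libraries and at 0.0224 RPKM in CpG1668 2. Batf2, under the minimum, was called lower in CpG1668+Dox than in PBS in the fit with no filter (-0.48, adjusted p = 0.022).

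Other interferon targets did not move as 1 group. Of 12 tested interferon-gamma targets outside these families, 2 were called higher in CpG1668 (B2m and Serpina3g), 1 in Dox (B2m) and 3 in CpG1668+Dox (B2m, Psmb8 and Serpina3g) against PBS, and 0 lower. The shares of all genes called higher were 3.06%, 3.95% and 9.13% in that order. In the fit with no filter, of 8 such targets under the minimum, Zbp1 was called higher in each treated group and Ly6a and Nlrc5 in the 2 given CpG1668. B2m, the light chain of MHC class I, went from 229 ± 11.8 RPKM in PBS to 308 ± 18.3 (SD, n = 3) in CpG1668+Dox (0.43, limma adjusted p = 1e-04). Of 12 tested type I interferon targets, Trim30a was called higher in each treated group. The PBS mean of Trim30a was 0.613 RPKM, under the minimum, so the caution given for Gbp3 holds for it too. Rsad2 and Isg15 were called lower in Dox and in CpG1668+Dox, and Eif2ak2 in CpG1668+Dox. Of 8 under the minimum, the fit with no filter called Oas2 higher in each treated group, Oasl2 in the 2 given CpG1668 and Ifit3 in CpG1668+Dox. Rsad2, an antiviral enzyme, was at 24.0, 39.1 and 27.9 RPKM in PBS and at 12.5, 2.33 and 5.1 in Dox (-2.24, adjusted p = 0.011), with PBS 2 again the highest. Isg15, a ubiquitin-like modifier, was at 58.5, 86.3 and 62.8 in PBS and 25.5, 14.4 and 18.5 in CpG1668+Dox (-1.80, adjusted p = 0.0056).

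Of 21 further guanylate-binding and immunity-related GTPase genes listed, 2 reached a mean of 1 RPKM, Ifi47 (9.62 to 11.7) and Irgq (1.9 to 2.34). By limma 0 of these 2 were called in any of the 6 pairs, and 0 had an unadjusted p under 0.05 in the comparisons against PBS. Of the 19 under the minimum, the fit with no filter called 9930111J21Rik2 higher in CpG1668 and in CpG1668+Dox against PBS (0.47, adjusted p = 0.033 and 0.82, adjusted p = 0.00053), with group means of 0.339 RPKM in PBS and 1.36 in CpG1668+Dox. It called 9930111J21Rik1 higher in CpG1668+Dox (0.43, adjusted p = 0.0082), and 0 of the 19 in Dox, where 5 had an unadjusted p under 0.05. Gbp8 and Gbp2b were not called there (0.33, adjusted p = 0.097 and 0.33, adjusted p = 0.098 for CpG1668+Dox against PBS), though their CpG1668+Dox libraries were all above those of PBS. A list of autophagy genes held the ATG8 conjugation machinery, which places these GTPases on vacuoles, and, outside it, Ulk1, Becn1 and Wipi2. Of its 14 tested genes, Gabarapl2 was called lower in all 3 treated groups (-0.20, -0.22 and -0.28, adjusted p = 0.039, 0.026 and 0.0031 for CpG1668, Dox and CpG1668+Dox). Ulk1 was called lower in Dox and CpG1668+Dox, and Gabarapl1 in CpG1668+Dox. Atg16l1 was called higher in CpG1668 and Atg12 in CpG1668+Dox. Of 4 tested inflammasome and pyroptosis genes, Pycard (0.49, adjusted p = 0.00073), Gsdmd (0.20, adjusted p = 0.025) and Il1b (1.30, adjusted p = 0.0014) were called higher where both agents were given, relative to PBS. Il1b was the single one called in Dox, and 0 of the 4 were called by limma in CpG1668, where 0 had an unadjusted p under 0.05. The PBS mean of Il1b was 0.767 RPKM, so it passed the minimum through the treated groups. Of the 6 under the minimum, the fit with no filter called Casp1, Mefv and Nlrc4 higher in both groups given CpG1668 and Casp4 and Nlrp3 in CpG1668+Dox, against PBS, and 0 in Dox, where 4 had an unadjusted p under 0.05.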

How the data were processed

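RNA was sequenced from sorted leukaemia cells of 12 libraries, 3 in each of 4 groups taken from the sample titles. The deposited values are RPKM made by the authors, 1 value per gene symbol. Per the submitters' processing notes, the tools were Partek 7.18.0723 and STAR 2.7.9 and the build mm10. Their roles, the annotation and any filters were not given in the sources used here. Depth was estimated by taking the commonest RPKM times length of genes with 1 transcript as 1 read, which put 72.7% to 74.3% of 4852 to 5190 values within 0.05 of a whole number of reads. Estimated reads of a gene use its joined exon length in GENCODE M21 and cover counting error only. Of the symbols, 32391 (96.6%) were found in that annotation.

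The 12167 genes whose RPKM averaged 1 or more across libraries were fitted as log2(RPKM + 1) with limma 3.58.1 in R 4.3.3, as 4 group means with an intensity trend (8 residual degrees of freedom), with 6 pairwise comparisons and the interaction. P-values were adjusted over all genes tested. The procedure was run on simulated data with changes placed only in genes more abundant than Gbp2 and Gbp3. That run does not bear on calls of low genes or on the fit with no filter. Alternatives were a pseudocount of 0.1, no filter or a minimum of 5, median-of-ratios scaling, quantile normalization, no trend, a replicate block, a fit restricted to the compared groups, and dropping each library in turn. The members, gene lists and the rule for genes named (all members, up to 3 called genes per list with the largest moderated t, fixed pathway genes and the 5 closest patterns) were chosen with earlier results of these data known. Some genes that this rule would name are not reported here.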

Additional observations from a re-analysis of the deposited data

How the results depend on the processing

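Of 10 member calls, with 192 values under the alternatives, 169 kept direction and call, 23 kept direction and lost the call, and 0 reversed. The calls lost were those of Irgm2 in CpG1668 against PBS (adjusted p 0.028 to 0.12), Igtp in Dox against PBS (0.027 to 0.14) and, in the fit of only the groups compared, Gbp3 in CpG1668 against Dox (0.053). In CpG1668 against PBS the 2 members called became 1 with no filter, with the replicate block and in the fit of only the groups compared, 0 with a minimum of 5, and 1 to 2 on leaving out a library. In Dox against PBS 2 became 1 with no filter, a minimum of 5, the replicate block and only the groups compared, and 1 to 2 on leaving out a library. In CpG1668+Dox against PBS 4 became 1 with a minimum of 5, under which Gbp2, Gbp3, Irgm1 and Irgm2 were not tested, 6 with no filter (4 higher and 2 lower) and 5 with quantile normalization (2 higher and 3 lower, Irgm1 added). In CpG1668+Dox against Dox 1 became 2 with no filter or no trend, 0 with a minimum of 5, and 1 to 2 on leaving out a library. In CpG1668 against Dox 1 became 0 with a minimum of 5 or only the groups compared, and 1 to 2 on leaving out a library. In every comparison a minimum of 5 left Gbp2, Gbp3, Irgm1 and Irgm2 untested, so they could not be called there. Where no cause is named, the cause was not tested. Log2 changes of Gbp3 against PBS moved from 0.55 and 0.66 to 1.05 and 1.22 with a pseudocount of 0.1 and to 0.35 and 0.41 with quantile normalization. Gbp2 in CpG1668+Dox moved from 0.47 to 0.74 and 0.36 likewise. The counts over all genes moved too: leaving out a library gave 367 to 762 for CpG1668 against PBS (716 in the full fit), 313 to 774 for Dox against PBS (728), 133 to 459 for CpG1668+Dox against CpG1668 (397), 258 to 429 for CpG1668+Dox against Dox (423), 33 to 236 for CpG1668 against Dox (190) and 0 to 1 for the interaction (0). The other settings gave 455 to 767, 355 to 761, 185 to 396, 180 to 658, 72 to 188 and 0 to 12 in that order. For CpG1668+Dox against PBS (1890) they gave 1155 to 2624. In CpG1668+Dox against PBS 58.8% of calls were higher, and 42.1% with quantile normalization. In Dox against PBS the share went from 65.9% to 51.5%, in CpG1668+Dox against CpG1668 from 94.0% to 82.3%, and in CpG1668 against Dox from 22.6% to 35.3%, or 38.2% with median-of-ratios scaling.

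Replicate numbers shared between groups did not pair the libraries: deviations from the group means of same-numbered libraries correlated at -0.207 to 0.268 over 18 pairs, 2 of them over 0.1, and 3 of 12 libraries correlated best with their own number. Apart from the 2 calls lost above, the replicate block changed no member call. Depth limits Iigp1, at 0 to 6.97 estimated reads, and leaves Gbp9 at 10.6 to 64.5.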
